A study of Mus musculus with 10 samples.

Results

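The comparison described here is that of crypts of the mouse distal colon after azoxymethane (AOM) and dextran sulfate sodium (DSS) with crypts of untreated mice, across all genes of the deposited table. That table holds 23364 genes. Of these, 5030 had a mean of 0 in both groups and no p-value, 18334 were tested by the authors, and 12273 had a mean of at least 50 normalised reads in at least one group. Ratios of the group means were taken over those 12273 genes, so genes at both sides of the limit have similar levels: the 5 just below it, among them Dnajc6 and Efna3, had a higher mean of 49.8 to 49.9, and the 5 just above it, among them Tlr5 and Pdgfra, of 50.1 to 50.2.

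RNA of crypts shaken off the distal colon with EDTA was sequenced in 3 untreated samples (control), 3 samples from mice given DSS following AOM (AOM+DSS) and 4 samples from mice given DSS alone. All groups share the source, colon epithelium, the crypt isolation, poly(A) selection and the library kit. Not given in the sources used here are strain, age, sex, doses, schedule and the time of sampling, nor whether AOM+DSS crypts came from dissected tumours or from the whole distal colon, so that each AOM+DSS sample may mix tumour with other crypts. The labels do not say that the samples came from separate mice, and p-values therefore cover only how these samples spread, and that spread may be technical.

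AOM is a procarcinogen that is activated in the body to a DNA-alkylating agent. DSS is a polymer that damages the colonic epithelium and causes colitis, and the combination is a standard mouse model of colitis-associated colon cancer. Tumours of this model are known for activating mutations of beta-catenin, the protein that carries the Wnt signal into the nucleus. There beta-catenin joins TCF/LEF factors on DNA and switches on target genes, several of which code for secreted or intracellular antagonists that dampen the same signal. The untreated colonic crypt holds stem cells at its base, goblet cells that make mucus, and absorptive colonocytes that take up salt, water and short-chain fatty acids. Paneth cells, which secrete alpha-defensins, belong to the small intestine and are normally not found in the mouse colon.

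The deposited tables give group means only, but the means carry 15 significant digits, and the whole reads of each library could be recovered from them for 99.9% of genes in the control and AOM+DSS groups. Libraries are lettered here from the deepest down, since nothing links the reads to the labels' replicate numbers. Recovered reads came to 18261022, 17945600 and 16507580 in control libraries a, b and c, and in the AOM+DSS group to 23593132, 21409134 and 16165300. All library values below are reads divided by the authors' size factor, and intervals on few reads cover counting error only. Ratios given with such an interval are of reads pooled over each group and scaled by the summed size factors, not of group means. Values of 1 gene may be compared between samples, but not levels of different genes, as they are not scaled to gene length. A pair of libraries stood apart from their groups. Control library b held more reads of immune, plasma cell and fibroblast markers than the other controls, and AOM+DSS library c held more reads of smooth muscle, mast and plasma cell markers than the other AOM+DSS libraries. The sums of the 12 pan-epithelial markers with recovered reads, of 14 listed, were 153003, 153355 and 144441 in the control libraries and 162795, 167231 and 177478 in the AOM+DSS libraries, as the label of colon epithelium says. In such bulk samples fewer cells of a type and less RNA per cell cannot be told apart.

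In the authors' deposited table, 1630 of the 18334 genes tested (8.89%) had an adjusted p below 0.05, and these are the genes called here. Of them, 1016 were higher in AOM+DSS (5.54% of genes tested) and 614 lower (3.35%). Counts of called list members below are to be read beside these shares. Among the 12273 genes at or above the limit, 1564 were called (12.7%), of which 953 were higher (7.77%) and 611 lower (4.98%). Many lists hold mostly genes at or above the limit, and their counts are to be read beside these larger shares too. The rises were larger than the falls: 459 of the genes called higher differed by at least 4-fold, 165 by at least 16-fold and 80 by at least 64-fold, whereas 76 genes called lower differed by at least 4-fold and 4 by at least 16-fold. The median log2 ratio of all genes tested was 0.04. Of 1553 called genes above the limit with recovered reads, 1536 had no overlap between the 3 control and the 3 AOM+DSS libraries, against 45.8% of all such genes, called or not. Limma, a linear model run on the logarithm of the recovered reads as a check per library, called 3154 of 18305 genes (17.2%), 1970 higher (10.8%) and 1184 lower (6.47%). It called 1510 of the 1619 authors' genes that it could fit, and all 1619 had the same sign in it.

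**Figure D1:**
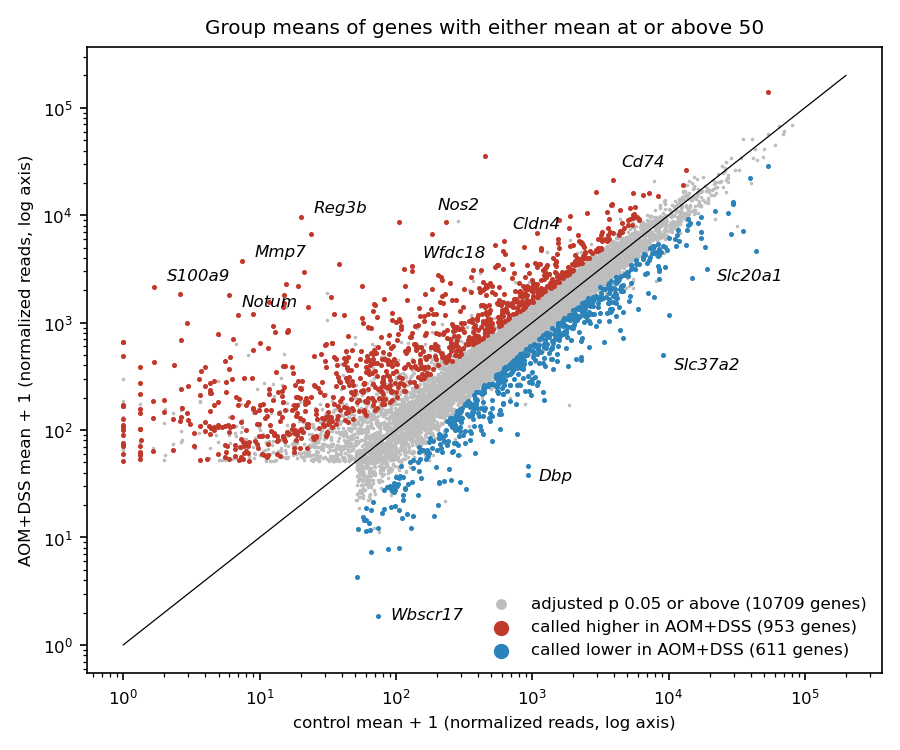
Mean normalised reads of each gene in control (x axis) and AOM+DSS (y axis), both on log10 axes, with genes called higher or lower in the authors' deposited table in colour. Called genes above the diagonal reach farther from it than those below: 80 rose by at least 64-fold, and 1 fell by as much.

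The 3 AOM+DSS libraries differed in how far they moved. Library c had the lowest level of the group for 742 of the 952 recovered genes called higher, and the highest for 527 of the 601 called lower. Library b had the highest level for 706 and the lowest for 518. The median log2 distance from the control mean over genes called higher was 1.83 in library a, 2.10 in library b and 1.52 in library c.

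The genes with the highest ratios code for products of inflammation and for epithelial or secreted proteins nearly absent from control crypts. S100a9 and S100a8, the subunits of calprotectin, which is abundant in neutrophils, led them. S100a9 stood at 0, 0.988 and 1.06 in the control libraries and at 1379, 4036 and 1025 in the AOM+DSS libraries. On 2 control reads in all, its ratio of pooled reads was 3315 (95% interval 917 to 27376), and its ratio of means was 3147. The authors' deposited table gave an adjusted p of 0.000211. S100a8 went from 2.90, 1.98 and 0 to 1119.9, 3729.6 and 679. Both genes were nearly unread in every control library, and both were highest in AOM+DSS library b. The myeloid C-type lectin receptors Clec4d and Clec4e, each with 1 control read, had ratios of 837 (95% interval 149.9 to 33111) and 676 (95% interval 121 to 26721). Cxcl2, a chemokine for neutrophils, went from 2.90, 2.96 and 0 to 871, 1762 and 369. Reg3b, a secreted lectin that kills bacteria, rose 505-fold, from 3.86, 24.7 and 28.6 to 5665, 20104 and 3099.9.

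Other leading genes code for proteases, regulators and matrix proteins. Mmp7, the metalloproteinase matrilysin, stood at 1.93, 10.9 and 6.36 in control and at 3267, 6783 and 1075 in AOM+DSS, a rise of 581-fold (adjusted p 0.00295, authors' deposited table). All 3 AOM+DSS libraries lay far above every control, although library b held several times the level of library c. Onecut2, a homeodomain transcription factor, had 1 control read and then 133, 167 and 130.4 with little spread between libraries. Syt16, of the synaptotagmin family, was at 121, 269 and 76.2 on 1 control read, and Spp1, the secreted matrix protein osteopontin, went from 0, 4.94 and 0 to 495, 1127 and 451.

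The smallest adjusted p-value of the table belonged to a gene that moved alike in all libraries. Wfdc18, a small secreted protein of the whey acidic protein family, stood at 100.4, 132 and 161 in control and 3598, 3481 and 2944 in AOM+DSS, and rose 25.5-fold (adjusted p 7.51e-68, authors' deposited table). Its limma difference was 4.68 ± 0.18 on the log2 scale (± SE, adjusted p 0.000141). Neither group spread over more than 2-fold. Ckb, the brain form of creatine kinase, rose 13.4-fold, Sptssb, a subunit of serine palmitoyltransferase, 11.3-fold, and Ifi47, an interferon-induced GTPase, 11.4-fold. The near-identical copies Khdc1a and Khdc1c, between which reads may have been split, rose 34.8-fold and 31.9-fold.

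**Figure D2:**
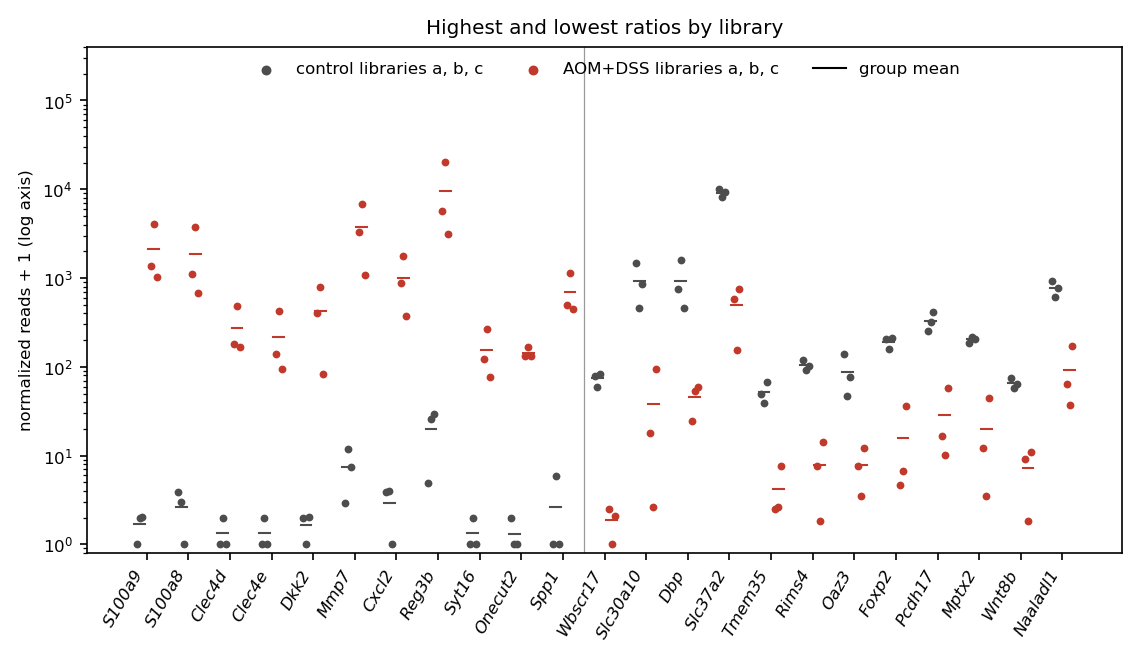
Normalised reads (log10 axis) of 11 highest-ratio and 12 lowest-ratio genes in each control and AOM+DSS library; each point is 1 library. The groups are apart in every gene shown, by the rule that chose them.

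Secreted and intracellular antagonists of Wnt signalling were among the genes that rose most. Of 16 tested genes of this list, 5 were called higher and none lower, and the list's median log2 ratio was 1.32. Notum, an enzyme that removes the lipid from Wnt proteins and so inactivates them, stood at 6.76, 3.95 and 4.24 in the control and 1789.9, 2897 and 750.1 in the AOM+DSS libraries. Its ratio of means was 364 and its limma difference 8.07 ± 0.49 (adjusted p 9.57e-05, authors' deposited table and 0.000513 in limma). Every AOM+DSS library lay far above the highest control.

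Wif1, which binds Wnt ligands outside the cell, went from 13.5, 11.9 and 16.9 to 1984, 2776 and 631, a rise of 127-fold. Nkd1, an intracellular feedback inhibitor induced by the pathway, stood at 11.6, 30.6 and 18.0 in control and at 2937, 5137 and 805 in AOM+DSS, and rose 147-fold. Dkk2 and Dkk3 are secreted proteins of the Dickkopf family. Dkk2 had 2 control reads and then 399, 796 and 82.9, a ratio of 680.4 (95% interval 188 to 5623). Dkk3 stood at 1.93, 51.4 and 1.06 in control, where library b held nearly all reads, and at 363, 321 and 178 in AOM+DSS. Axin2, the feedback gene most used to read out the pathway, stood at 1000.2, 958 and 865 in control and 2191, 3647 and 1348 in AOM+DSS, without overlap, but the authors' deposited table gave an adjusted p of 0.117. Limma called 8 higher of 16, but 4 without any of control library a, control library c and AOM+DSS library a. It also called 1 lower.

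Among 20 other targets and effectors of Wnt signalling, 7 were called higher and none lower, with a median log2 ratio of 1.19. Mmp7, given above, is one of them. Cd44, a hyaluronan receptor, stood at 334, 569.8 and 443 in control and 2191, 2845 and 1288 in AOM+DSS, and rose 4.70-fold. Tgif1, a transcriptional repressor, rose 1.99-fold and Phlda1 rose 3.09-fold. The remaining 3, chosen after their values were seen, were the transcription factors Sp5 (69.7-fold) and Prox1 (71.2-fold) and the cyclin Ccnd1 (1.68-fold). Limma called 10 higher of 20, but 4 without either control library a or AOM+DSS library a and 6 without control library c.

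Of 16 genes of the intestinal stem cell, 2 were called higher and 1 lower, against 5.54% and 3.35% of all genes, and the median log2 ratio was 0.24. Among all genes at or above the limit the shares were 7.77% higher and 4.98% lower. Limma called 3 higher and 3 lower, or 2 to 7 higher and 1 to 3 lower with 1 library left out. Prom1, the surface protein CD133, was among the called genes and rose 3.29-fold, from 3149, 4975 and 3442 to 11914, 16619 and 9565. Cd44 is also in this list. Aqp1, a water channel, fell by 1.05 on the log2 scale, from 1338, 1340.2 and 1483 to 564, 668 and 781. Lgr5, the receptor that marks cycling crypt stem cells, was not called (adjusted p 0.404, authors' deposited table). It stood at 318, 269 and 361 in control and at 1185, 1219 and 236 in AOM+DSS, where libraries a and b were above every control and library c below every control.

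A plain TCF/LEF motif was searched for near the starts of the genes of both Wnt lists. The letters CTTTGAT, taken on both strands in windows from 250 bases before to 50 bases after the annotated start (RefSeq, GRCm38.p6, 300 bases), were found in 3.73% of all 32851 windows and in 2.84% of those of tested genes. They were in 5 of 23 windows of the effectors, of the genes Sp5, Mmp7, Tnfrsf19 and Tgif1, and in 0 of 10 windows of the antagonists. The window of Mmp7, chr9:7691840-7692139 on the plus strand, is shown because this gene had one of the highest ratios in the table; capitals mark the match, which begins 4 bases after the start and reads as the reverse complement.
Mmp7: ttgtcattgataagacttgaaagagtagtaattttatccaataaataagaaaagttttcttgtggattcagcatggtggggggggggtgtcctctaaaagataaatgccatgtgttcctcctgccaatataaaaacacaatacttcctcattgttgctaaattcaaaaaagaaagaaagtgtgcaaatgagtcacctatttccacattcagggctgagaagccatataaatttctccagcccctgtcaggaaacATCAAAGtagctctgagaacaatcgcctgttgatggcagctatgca
A match is a description of the letters and not evidence that a factor binds there.

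Genes of the fetal and regenerating gut epithelium, which reappear in healing intestine, were mostly higher: 14 of 19 tested were called higher and none lower, with a median log2 ratio of 2.22, or 2.09 with genes unread in control at their lower bounds. Ly6d, a small surface protein, stood at 13.5, 101 and 8.47 in control and 1234, 1551 and 718 in AOM+DSS and rose 28.5-fold. Msln, the surface protein mesothelin, went from 29.9, 26.7 and 16.9 to 241, 318 and 209.9, and Col4a2, a chain of basement membrane collagen, from 91.7, 201 and 74.1 to 619, 607 and 505. These libraries do not overlap between the groups, and the levels in AOM+DSS differed by less than 2-fold for Msln and Col4a2. Limma called 15 higher of 19, but 9 without either control library a or control library c.

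Proteases that cut the extracellular matrix rose with them. Of 21 metalloproteinases and members of the plasminogen system, 14 were called higher and none lower, and the median log2 ratio was 2.77. Plaur, the urokinase receptor, went from 48.3, 107 and 39.2 to 901, 1224 and 551, a rise of 13.8-fold. Mmp12, the macrophage elastase, stood at 0.965, 7.90 and 0 in control and 318, 609 and 236 in AOM+DSS, and Mmp13, a collagenase, at 0.965, 19.8 and 0 in control and 95.9, 141 and 60.8 in AOM+DSS. Both were nearly unread in control libraries a and c and higher in library b. Mmp28 rose 6.12-fold. Plat, the tissue plasminogen activator, chosen after its values were seen, went from 7.72, 12.8 and 3.18 to 982, 2217 and 380.0. Limma called 16 higher of 21, but 8 without control library a, 9 without AOM+DSS library a and 10 without control library c.

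In the group of EGF receptor ligands and receptors, which drive epithelial growth, 5 of 14 were called higher and none lower, with a median log2 ratio of 1.24. Egfr, the receptor itself, stood at 709, 646 and 616 in control and 1629, 1843 and 1139 in AOM+DSS and rose 2.34-fold (limma difference 1.20 ± 0.18, adjusted p 0.00703). Its ligands Areg, Hbegf and Tgfa rose 4.65-fold, 2.38-fold and 2.07-fold. The ligand Ereg, chosen after its values were seen, stood at 8.69, 21.7 and 3.18 in control and 32.7, 165 and 92.8 in AOM+DSS. Limma called 8 higher of 14, but 1 without either control library a or control library c and 2 without either AOM+DSS library a or AOM+DSS library b; it also called 2 lower. Of 24 genes of BMP and TGF-beta signalling, 2 were called higher and 1 lower (12.5% in all, near the 8.89% of all genes). Fst, the activin antagonist follistatin, had 1 control read and 65.4, 117 and 29.8 in AOM+DSS. Id2, a target of BMP signals, rose 2.14-fold, and the ligand Bmp2 fell by 0.84 on the log2 scale. In this list limma called 6 higher and 1 lower, or 2 to 8 higher and 0 to 3 lower with 1 library left out.

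Few genes of the cell cycle and of DNA repair were called, against 5.54% higher and 3.35% lower of all genes. Their ratios still leaned to 1 side, above 1 for 28 of 34 cell cycle genes and below 1 for 14 of 18 repair genes. Of 34 genes of the cell cycle and DNA replication, Rrm2, a subunit of ribonucleotide reductase, was the single one called, at 347, 373 and 343 in control and 719, 959 and 441 in AOM+DSS (1.99-fold higher). The list's median log2 ratio was 0.24, and limma called 1 higher of 34, but 0 without any of control library a, control library b, control library c, AOM+DSS library a and AOM+DSS library b and 10 without AOM+DSS library c. Mki67, a marker of cycling cells chosen after its values were seen, stood at 5817, 5002 and 6187 in control and 7673, 5137 and 4463 in AOM+DSS and was not called. Of 22 CDK inhibitors and p53 targets, 3 were called higher (13.6%): Cdkn2a, Pmaip1 and Phlda3. Cdkn2a, which codes for the inhibitors p16 and p19Arf, had 3 control reads, all in library b, and stood at 152, 209 and 76.2 in AOM+DSS, a ratio of 152 (95% interval 51.7 to 739). Pmaip1, the cell death gene Noxa, rose 2.07-fold and Phlda3 6.65-fold. Limma called 5 higher of 22, but 1 without any of control library a, control library c and AOM+DSS library a. It also called 1 lower. None of 18 DNA repair genes was called; Parp1 stood at 1599, 1164 and 1334 in control and 1259.7, 1213 and 947 in AOM+DSS, and Msh6 at 993, 809 and 746 in control and 839, 867 and 764 in AOM+DSS, with overlap in both. At an unadjusted p below 0.05, 1 of the 18 passed in the authors' deposited table, and limma called 0 higher and 1 lower.

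**Figure D3:**
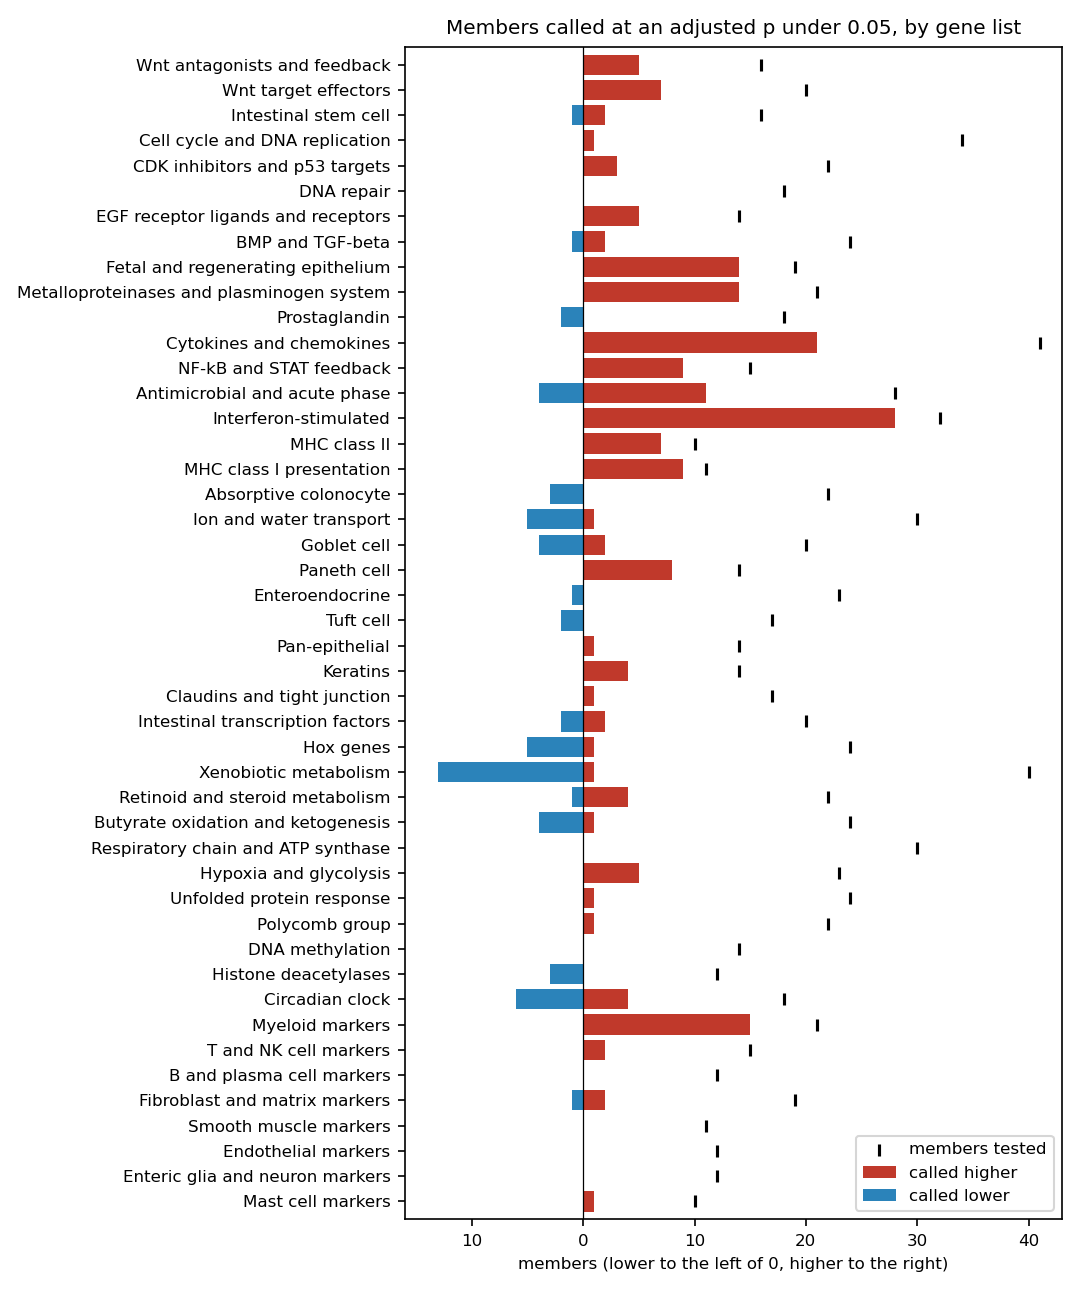
Number of members of each gene list called higher (bars to the right of 0) or lower (bars to the left) in AOM+DSS by the authors' adjusted p-values, with a tick at the number of members tested. The interferon-stimulated list has the longest bar to the right, 28 of 32, and xenobiotic metabolism the longest to the left, 13 of 40.

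Alpha-defensins, products of Paneth cells, were read in AOM+DSS and not in control. Of 14 tested Paneth cell genes, 8 were called higher and none lower. The sum of the list, in which Ang4 is the most abundant gene in control, was 7647, 14205 and 13500.5 in the control libraries and 19844, 35409 and 14274 in the AOM+DSS libraries, so that library c lay close to the highest control. Defa20, an alpha-defensin, had no read in any control library and stood at 599, 393 and 476 in AOM+DSS, at least 488-fold higher (adjusted p 1.14e-33, authors' deposited table). The floor for such bounds is 3 reads over the 3 control libraries. Defa22, Defa21 and Defa17 were also unread in control, and were at least 126-fold, 106-fold and 99.1-fold higher. Each was present in all 3 AOM+DSS libraries, at 120.5, 100.1 and 97.2 for Defa21. As alpha-defensin genes are near-identical copies, the share of each is uncertain, whereas their joint presence does not depend on how reads were split among them. Mmp7, which activates alpha-defensins in the small intestine, is in this list too. Lyz1, the Paneth cell lysozyme, and Defa3 and Defa5, all chosen after their values were seen, were the remaining called members, and Lyz1 stood at 34.8, 247 and 33.9 in control and 7786, 15912 and 2342 in AOM+DSS. Limma called 11 higher of 14, and 1 lower. That gene was Ang4, an antimicrobial ribonuclease, also chosen after its values were seen, at 4923, 10417 and 8918 in control and 1177, 2108 and 4068 in AOM+DSS (adjusted p 0.285, authors' deposited table).

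About as many cytokines and chemokines were called as not. Of 41 tested, 21 were called higher and none lower, with a median log2 ratio of 2.91 (2.67 with bounds). Tnf, tumour necrosis factor, stood at 80.1, 91.8 and 87.9 in control and 717, 826 and 412 in AOM+DSS, and rose 7.52-fold (limma difference 2.84 ± 0.26, adjusted p 0.00179). The control libraries lay close together and all AOM+DSS libraries well above them. Cxcl16 rose 5.34-fold, from 218, 218 and 126 to 1012, 1229 and 763. The monocyte chemokines Ccl7 and Ccl8 stood at 0, 5.93 and 2.12 and at 1.93, 15.8 and 2.12 in control, and at 116, 61.2 and 148 and at 89.2, 72.8 and 65.2 in AOM+DSS. Il1b, interleukin 1 beta, chosen after its values were seen, went from 7.72, 23.7 and 1.06 to 1297, 2556 and 805, again highest in library b. Limma called 26 higher of 41, but 13 without either control library a or AOM+DSS library a and 15 without control library c.

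Of 15 feedback genes of NF-kB and STAT signalling, 9 were called higher and none lower. Nfkbiz, a nuclear regulator of NF-kB targets, stood at 1394, 1645 and 1414 in control and 3421, 3369 and 3246 in AOM+DSS and rose 2.25-fold with little spread in either group. The cytokine signalling inhibitors Socs1 and Socs3 rose 3.62-fold and 2.87-fold. Icam1, an adhesion molecule for leukocytes, rose 8.69-fold. Limma called 10 higher of 15, but 5 without any of control library a, control library c and AOM+DSS library a. Of 28 antimicrobial and acute phase genes, 11 were called higher and 4 lower. Nos2, the inducible nitric oxide synthase, went from 181, 407 and 107 to 10290.0, 11277 and 4332, and rose 37.3-fold. Slpi, a secreted protease inhibitor, stood at 139, 163 and 56.1 in control and 1724, 1657 and 1441 in AOM+DSS. The mucosal pentraxin Mptx2 stood at 186, 216 and 207 in control and 11.2, 2.48 and 43.1 in AOM+DSS, a fall of 3.42 on the log2 scale. The other three lower genes, Mptx1, Reg4 and Wfdc2, were chosen after their values were seen. So was Lcn2, the siderophore-binding lipocalin, which went from 4.83, 11.9 and 1.06 to 1189.8, 2137 and 196. Limma called 14 higher and 4 lower of 25.

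Myeloid markers moved with these genes. Of 21 tested, 15 were called higher and none lower; their sums were 2515, 4812 and 2611 in control and 9912, 16179.8 and 8522 in AOM+DSS, and their part in the results on cytokines, S100 proteins and proteases was not tested. None of the 21 was at 0 in all libraries. Besides Clec4d and Clec4e, the fungal receptor Clec7a stood at 2.90, 39.5 and 0 in control and 204, 339 and 208 in AOM+DSS, and the mannose receptor Mrc1 at 35.7, 69.1 and 39.2 in control and 272, 220.0 and 154 in AOM+DSS. Cd14, the lipopolysaccharide co-receptor, which the control libraries held at 1132, 1281 and 1291, rose 2.40-fold. Limma called 18 higher of 21, but 5 without control library a, 7 without either control library c or AOM+DSS library a and 9 without AOM+DSS library b.

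Interferon-stimulated genes were higher almost throughout. Of 32 tested, 28 were called higher and none lower, against 5.54% of all genes, with a median log2 ratio of 1.66 beside 0.04. For 31 of 32 the groups did not overlap, against 45.8% of all genes at or above the limit. Ifi44 stood at 78.2, 116 and 114 in control and 924, 651 and 792 in AOM+DSS, and rose 7.68-fold (adjusted p 6.13e-23, authors' deposited table). Oas3, an enzyme that senses double-stranded RNA, went from 241, 623 and 209 to 1934, 1703 and 2191. Ifit1, which binds foreign RNA, stood at 436, 623 and 322 in control and 2047, 2217 and 2489 in AOM+DSS. In Oas3 and Ifit1, AOM+DSS library c was the highest of its group, in contrast to most genes called higher. Gbp3, a guanylate-binding protein of host defence, rose 7.33-fold, from 114, 246 and 183 to 1452, 1506 and 1022. Reads of the Ifit, Oas and Gbp families may be split among close copies. With each library left out in turn, limma called between 25 and 29 of the 32 higher.

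Many promoters of these genes hold a shared run of letters. The core of the interferon-stimulated response element, GAAA followed by any 2 bases and again GAAA on either strand, was found in 3.44% of all 32851 RefSeq windows of the same 300 bases, in 3.05% of the 16631 windows of tested genes, in 69 of 947 windows of genes called higher (7.29%) and in 9 of 573 of those called lower (1.57%). Of the 26 windows of interferon-stimulated genes, 15 held it (57.7%). Windows were found for 72.4% of tested genes. The 3 called genes named above that hold the motif are shown, with the matches in capitals: Ifit1 at chr19:34640639-34640938 (plus strand, matches from 104 and 85 bases before the start), Gbp3 at chr3:142559794-142560093 (plus strand, overlapping matches from 45 and 39 bases before it) and Oas3 at chr5:120777610-120777909 (minus strand, 75 bases before it), all on GRCm38.p6.
Ifit1: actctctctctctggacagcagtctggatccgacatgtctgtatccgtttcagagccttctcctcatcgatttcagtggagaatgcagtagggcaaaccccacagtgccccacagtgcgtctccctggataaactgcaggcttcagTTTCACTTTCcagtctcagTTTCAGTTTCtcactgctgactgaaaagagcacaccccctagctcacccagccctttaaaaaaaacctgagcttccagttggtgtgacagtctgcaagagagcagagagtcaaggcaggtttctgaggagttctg
Gbp3: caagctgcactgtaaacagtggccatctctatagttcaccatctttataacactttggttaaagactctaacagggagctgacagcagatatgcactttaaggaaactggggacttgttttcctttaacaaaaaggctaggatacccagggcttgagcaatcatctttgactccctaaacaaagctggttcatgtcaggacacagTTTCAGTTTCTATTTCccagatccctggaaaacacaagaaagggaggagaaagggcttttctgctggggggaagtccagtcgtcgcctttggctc
Oas3: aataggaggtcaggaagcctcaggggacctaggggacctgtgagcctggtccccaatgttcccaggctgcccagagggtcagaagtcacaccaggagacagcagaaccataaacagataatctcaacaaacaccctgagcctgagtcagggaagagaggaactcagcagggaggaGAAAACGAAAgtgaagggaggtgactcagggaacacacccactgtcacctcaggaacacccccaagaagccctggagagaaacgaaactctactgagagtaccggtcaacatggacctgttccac
In Ifit1 and Gbp3 the letters lie on the reverse strand and read TTTC, any 2 bases, TTTC. The list was defined by response to interferon, and a match does not show that a factor was bound in these crypts.

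Most genes of antigen presentation were called higher. Of 11 genes of MHC class I presentation, which shows peptides from inside the cell, 9 were called higher and none lower. Nlrc5, the transactivator of class I genes, went from 136, 419.7 and 93.2 to 1779, 2175 and 1372. The peptide transporters Tap1 and Tap2 rose 4.04-fold and 2.58-fold, and Psmb9, a subunit of the immunoproteasome, 2.99-fold. Limma called 10 higher of 11, but 5 without control library a. Of 10 class II genes, 7 were called higher and none lower, with a median log2 ratio of 2.38. Cd74, the invariant chain, stood at 1223, 9632 and 812 in control and 22152, 20297 and 21856 in AOM+DSS. H2-Eb1 stood at 371, 2652 and 217 in control and 7262, 6212 and 7189 in AOM+DSS, with H2-Ab1 and H2-DMb1 5.65-fold and 5.17-fold higher. Control library b, with more immune cell reads, lay several-fold above the other controls in all 4 genes and still below every AOM+DSS library. Limma called 7 higher of 10, but 0 without any of control library a, control library c, AOM+DSS library a and AOM+DSS library b and 4 without AOM+DSS library c.

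On the lower side, the largest fall was that of Wbscr17, an enzyme of the family that starts O-linked glycans: it stood at 78.2, 58.3 and 82.6 in control and at 1.49, 0 and 1.10 in AOM+DSS, 6.40 lower on the log2 scale in the authors' deposited table. Slc37a2, a sugar phosphate transporter, went from 9952, 8079 and 9418 to 581, 156 and 761, and fell by 4.20 on the log2 scale (limma difference -4.47 ± 0.52, adjusted p 0.00303). Slc30a10, a manganese exporter, stood at 1470.4, 454 and 853 in control and 17.1, 1.65 and 92.8 in AOM+DSS, and Foxp2, a forkhead transcription factor, at 203, 159 and 209 in control and 3.72, 5.79 and 35.4 in AOM+DSS. In the last 3 genes library c kept more reads than the other AOM+DSS libraries. Pcdh17, a protocadherin, Naaladl1, a peptidase of the intestinal surface, and Wnt8b, a Wnt ligand, fell by 3.58, 3.10 and 3.35. Tmem35, Rims4 and Oaz3 fell by 3.97, 3.91 and 3.68.

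Most markers of differentiated epithelium did not pass the test. Of 22 genes of absorptive colonocytes, 3 were called lower and none higher, with a median log2 ratio of -0.27. Slc20a1, a phosphate transporter, had an authors' mean of 19124 in control and 3178 in AOM+DSS and fell by 2.59 on the log2 scale. Car2, a carbonic anhydrase, stood at 18686, 18667 and 14761 in control and 8624, 8039.9 and 12150.0 in AOM+DSS. Slc16a1, the butyrate and lactate transporter Mct1, passed in the authors' deposited table at 0.0455, but its libraries overlapped and limma gave 0.103. Limma called 0 higher and 2 lower, or 0 to 2 higher and 0 to 7 lower with 1 library left out. Of 30 genes of ion and water transport, 5 were called lower and 1 higher. The chloride channel Ano1 and the potassium channel Kcnq1 fell by 0.93 and 1.02 on the log2 scale, and Aqp1 was given above. Scnn1g, a subunit of the epithelial sodium channel, rose 6.67-fold, from 65.7, 20.7 and 42.4 to 275, 400.3 and 183, whereas Scnn1a, another subunit, fell by 0.76, as did the bicarbonate transporter Slc4a4, by 0.99; both were chosen after their values were seen. In this list limma called 8 lower of 29, but 3 without either control library a or AOM+DSS library a and 5 without control library c. It also called 3 higher, or 0 to 3 with 1 library left out.

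Goblet cell genes went both ways: of 20, 2 were called higher and 4 lower. The membrane mucins Muc1 and Muc4 were higher. Muc1 stood at 206, 179 and 153 in control and 758, 562 and 456 in AOM+DSS, and Muc4 at 1849.9, 2665 and 1985 in control and 6852, 8569 and 4316 in AOM+DSS. Klk1, a kallikrein protease, had authors' means of 17392 and 6128. Creb3l1, a transcription factor of secretory cells, fell by 0.91 on the log2 scale in the authors' deposited table, with a limma adjusted p of 0.0530. Clca3, now named Clca1, and Capn9 were also lower (both chosen after their values were seen). Of the 15 goblet cell genes with recovered reads, limma called 4 higher and 1 lower, or 1 to 4 higher and 0 to 3 lower with 1 library left out. Of 23 enteroendocrine genes, the hormone gene Insl5 was the one called (4.35%, beside 3.35% of all genes lower). It stood at 1426, 1127 and 1552 in control and 615, 122 and 960.0 in AOM+DSS, with a limma adjusted p of 0.111. Ratios were below 1 for 17 of the 23 and above 1 for 6. In this list limma called 3 higher and 0 lower, or 0 to 4 higher and 0 to 4 lower with 1 library left out. Of 17 tuft cell genes, 2 were called lower (11.8%, beside 3.35% of all genes), namely Rgs13 and Hpgds, with limma adjusted p of 0.146 and 0.0528. Limma called 1 of these 17 higher and 0 lower, or 0 to 1 higher and 0 to 6 lower with 1 library left out. Hpgd, which degrades prostaglandins, went from 3565, 3615 and 3716 to 1565, 1484 and 2594; it and Hpgds were the 2 of 18 prostaglandin genes that the authors called. Limma gave the other balance, 5 higher and 1 lower, or 0 to 6 higher and 0 to 4 lower with 1 library left out. Ptgs2, the inducible cyclooxygenase, chosen after its values were seen, stood at 0, 7.90 and 0 in control and 161, 342 and 56.3 in AOM+DSS and was called by limma (adjusted p 0.00953) but not by the authors.

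Of 40 genes of xenobiotic metabolism, which handle foreign compounds, 13 were called lower, 1 higher and 26 did not pass, against 3.35% and 5.54% of all genes, with a median log2 ratio of -0.43. The glutathione transferase Gstm1 stood at 8881, 8196 and 8432 in control and 3015, 1516 and 4524 in AOM+DSS. The sulfotransferase Sult1a1 went from 4416, 3965 and 4641 to 1025, 787 and 2379. Gstt1 and Sult1c2 fell by 1.56 and 1.51 on the log2 scale. In all 4 genes, AOM+DSS library b was the lowest and library c the highest of the group, with no overlap with control. Limma called 11 lower of 40, but 1 without any of control library a, control library c and AOM+DSS library a and 17 without AOM+DSS library c. It also called 1 higher. The single member called higher by the authors, Cyp2c65, was chosen after its values were seen. It stood at 133, 560.0 and 128 in control and 565, 504 and 879 in AOM+DSS, where control library b overlapped with the treated group.

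Of 22 genes of retinoid and steroid metabolism, 4 were called higher and 1 lower. Aldh1a3 and Rdh10, which make retinoic acid and its precursor, rose 53.9-fold and 3.79-fold. Dhrs9, a retinol dehydrogenase, went from 54.1, 106 and 84.7 to 1728, 2249 and 1016. Adh1, an alcohol and retinol dehydrogenase, fell by 1.22 on the log2 scale, from an authors' mean of 29857 to 12811. Limma called 6 higher of 21, but 3 without any of control library a, control library c and AOM+DSS library b. It also called 2 lower.

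Butyrate is the main fuel of the colonocyte, and of 24 genes of its oxidation and of ketogenesis 4 were called lower and 1 higher. The enzymes Acaa2 and Acads and the lipid-sensing receptor Ppara fell by 0.79, 0.74 and 0.98 on the log2 scale, and Slc16a1, given above, was the fourth. Limma called 8 lower of 24, but 0 without either control library a or AOM+DSS library a, 1 without either control library c or AOM+DSS library b and 5 without control library b. It also called 1 higher. None of 30 subunits of the respiratory chain and ATP synthase was called by the authors, but 29 of 30 had a ratio below 1, and the median log2 ratio was -0.35. At an unadjusted p below 0.05, 8 passed, and limma called 10 lower of 30, but 0 without any of control library a, control library c and AOM+DSS library a, 1 without AOM+DSS library b and 20 without AOM+DSS library c. Atp5b stood at 31909, 30200.4 and 29375 in control and 27235, 25168 and 27033 in AOM+DSS. Of 23 genes of hypoxia and glycolysis, 5 were called higher and none lower. Pfkfb3, an activator of glycolysis, went from 141, 155 and 145 to 1288, 2109 and 695, hexokinase Hk2 rose 2.50-fold, and the lactate exporter Slc16a3 rose 4.67-fold. The carbonic anhydrase Car9 and, chosen after its values were seen, the peptide Adm were the others. In this list limma called 7 higher of 23, but 3 without AOM+DSS library a and 4 without any of control library a, control library c and AOM+DSS library b. It also called 1 lower.

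Transcription factors and structural genes of regional identity changed in part. Of 24 Hox genes, which keep the position along the gut, 5 were called lower and 1 higher. Hoxd13 and Hoxb13, markers of the hindgut, fell by 1.43 and 0.99 on the log2 scale. Hoxb13 stood at 9421, 7843 and 8189 in control and 5109, 2485 and 5202 in AOM+DSS. Hoxd11 fell by 1.24, and Hoxd10 and Hoxd12, chosen after their values were seen, were the remaining ones, so that 4 of the 5 lower genes lie in the Hoxd cluster. Hoxa9 rose 1.95-fold. Limma called 4 lower of 24, but 0 without either control library a or control library c and 2 without AOM+DSS library b. It also called 3 higher, or 1 to 3 with 1 library left out. Ratios were above 1 for 16 of the 24 Hox genes and below 1 for 8, with a median log2 ratio of 0.29. Among 20 intestinal transcription factors, Isx, which is normally high in the small intestine, stood at 78.2, 89.9 and 80.5 in control and 244, 644 and 491 in AOM+DSS, and Id2 was the other one called higher, whereas Foxa2, at 1279, 874 and 1651 in control and 614, 410.3 and 717 in AOM+DSS, and Foxp2 were lower. Of 14 keratins, 4 were called higher, Krt7, Krt13, Krt17 and Krt36. Krt17, a keratin of stratified and wounded epithelium, had 1 control read and 128, 76.1 and 34.2 in AOM+DSS. Limma called 5 higher of 12, but 2 without either control library a or AOM+DSS library a and 3 without either control library c or AOM+DSS library b. Of 17 claudins and tight junction genes, Cldn4 was called (5.88%, beside 5.54% of all genes higher), from 709.6, 539 and 619 to 5599, 8176 and 3458.

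Among regulators of chromatin, 3 of 12 histone deacetylases were called lower. The share called lower was 3.35% among all genes and 4.98% among those at or above the limit. Hdac11 stood at 1467, 1354 and 1783 in control and 545, 609.6 and 674 in AOM+DSS. Hdac5 fell by 1.05 on the log2 scale and Hdac10 by 0.77. Of 22 Polycomb genes, Cbx6 was called (4.55%, beside 5.54% of all genes higher), and it rose 4.55-fold. Of 14 genes of DNA methylation none was called. Tet3 stood at 2135, 2934 and 2025 in control and 2205, 2763 and 2782 in AOM+DSS, with overlap. For DNA methylation, 1 passed at an unadjusted p below 0.05, and limma called 0 higher and 1 lower. Of 24 genes of the unfolded protein response, Herpud1 was the one called (4.17%, beside 5.54% of all genes higher), and it rose 1.52-fold.

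Of 18 genes of the circadian clock, 10 were called, 4 higher and 6 lower, beside 8.89% of all genes. Dbp, an output factor of the clock, stood at 742, 1584 and 464 in control and 23.8, 52.9 and 58.6 in AOM+DSS, and fell by 4.37 on the log2 scale. The repressor Nr1d1 went from 5149, 3897 and 4820.4 to 1217, 1051 and 1465. The activator Arntl and the repressors Cry1 and Nfil3 rose 1.81-fold, 2.82-fold and 2.89-fold. Others, chosen after their values were seen, were the activator Npas2, which was higher, and Nr1d2, Tef and Per3, which were lower. Limma called 5 higher of 18, but 1 without any of control library a, control library c and AOM+DSS library a, 2 without AOM+DSS library b and 3 without AOM+DSS library c, and 6 lower of 18, but 3 without AOM+DSS library a. The time of day of sampling is not given in the sources used here, so that phase and treatment cannot be told apart.

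Genes of other cell types that a crypt preparation can hold varied by library as well as by group. Fibroblast and matrix marker sums ranged from 704 to 3763 in control and from 6791 to 8578 in AOM+DSS. Of 19 such genes, 17 had a ratio above 1, but only Fn1 and Vim were called higher, and Pdgfrb was called lower. Much of the difference in the sums lay in Fn1 and Vim, with authors' means of 204 and 216 in control and 2770 and 2479 in AOM+DSS. Fn1, fibronectin, stood at 28.0, 402 and 181 in control and 3205, 3864 and 1241 in AOM+DSS, and Pdgfrb, a receptor of pericytes and fibroblasts, at 390.1, 339 and 376 in control and 131, 54.6 and 255 in AOM+DSS (limma adjusted p 0.0597). Smooth muscle sums were 1525, 3128 and 1504 in control and 1891, 1652 and 15156 in AOM+DSS, so that the group's excess lay in library c, and none of 11 was called. Plasma and B cell sums were 300.3, 3432 and 180.1 in control and 2247, 1513 and 5652 in AOM+DSS, with Igj, the joining chain of secreted antibodies, at 56.0, 2176 and 16.9 in control and 1624, 1181 and 4425 in AOM+DSS. T and NK cell sums ranged from 241 to 1042 in control and from 948 to 1412 in AOM+DSS; the granzymes Gzma and Gzmb were called higher, with limma adjusted p of 0.0394 and 0.0759. Endothelial sums ranged from 536 to 1119 in control and from 403 to 1301 in AOM+DSS, with no gene called. Glial and neuronal sums ranged from 199 to 244 in control and from 598 to 2172 in AOM+DSS, a difference that lay largely in Ret, a receptor tyrosine kinase, at 27.0, 22.7 and 40.2 in control and 703, 2094 and 350.2 in AOM+DSS (adjusted p 0.0928, authors' deposited table). Hdc, histidine decarboxylase, was the one mast cell marker called, at 3.86, 3.95 and 7.41 in control and 327, 878 and 221 in AOM+DSS, while Fcer1a, which defines mast cells, was at 0 in all control libraries and at 6.69, 15.7 and 126 in AOM+DSS. Limma called 8 higher of 10, but 2 without either control library a or control library c, and the median log2 ratio of the list was 6.36, or 6.06 with Fcer1a at its lower bound. At an unadjusted p below 0.05 in the authors' deposited table, 0 of 11 smooth muscle, 1 of 12 B and plasma, 1 of 12 endothelial and 1 of 12 glial genes passed, and limma called 0, 0, 0 and 1 of them higher. The part of these cells in the other results was not tested. Without control library b and AOM+DSS library c together, limma called 29 interferon-stimulated, 17 fetal epithelium and 19 metalloproteinase genes higher, and as well 19 myeloid, 12 fibroblast and matrix and 8 mast cell markers.

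**Figure D4:**
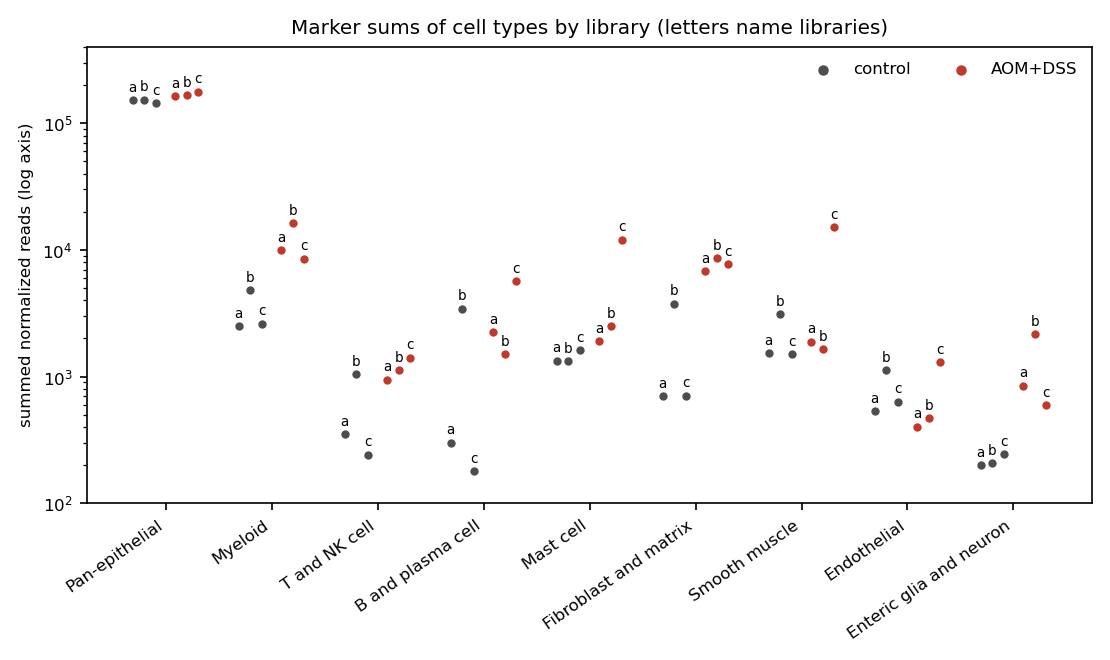
Summed normalised reads (log10 axis) of each cell type's marker list in the 3 control and 3 AOM+DSS libraries, 1 point per library. Myeloid and fibroblast sums are higher in every AOM+DSS library than in any control, and the smooth muscle sum is set apart in AOM+DSS library c. Much of the difference in the fibroblast sum lies in Fn1 and Vim.

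The check genes moved little: Gapdh stood at 10971, 11263 and 11458 in control and 11623, 13337 and 10006 in AOM+DSS, and Hprt at 2017, 2002 and 2233 in control and 1996, 2431 and 2235 in AOM+DSS. Actb had authors' means of 28796 and 34438, and the authors' deposited table gave an adjusted p of 0.739.

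Where AOM+DSS crypts differ from those of colitis alone was tested directly between the 3 AOM+DSS and the 4 DSS libraries, since comparisons of each with the same 3 controls share them. Limma called 388 of 15238 genes recovered in all 3 groups (2.55%), 374 higher in AOM+DSS (2.45%) and 14 lower (0.0919%). Genes with many DSS reads could not be resolved and are outside this test, and the DSS genes recovered hold 26.2% of the mean total. This leaves out genes high in DSS, which could be lower in AOM+DSS. The balance of higher and lower calls therefore cannot be read as a result. Of the 158 genes named here by rule 116 were fitted, and 25 were called, all higher in AOM+DSS. Of Wnt antagonists and of Paneth cell products, 6 of 17 and 10 of 12 were called higher. Notum stood at 0, 1.65, 4.25 and 6.20 in DSS libraries a, b, c and d, none above the highest control, and AOM+DSS was 8.96 ± 0.72 higher on the log2 scale (adjusted p 0.000815). Nkd1, Wif1 and Dkk2 were 7.15 ± 0.55, 7.10 ± 0.50 and 7.80 ± 0.75 higher than in DSS. Defa20 and Defa21 were unread in all 4 DSS libraries, as in control.

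Among the other lists, 8 of 20 metalloproteinase genes and 6 of 11 fetal epithelium genes were called higher than in DSS. Mmp7 stood at 109, 82.4, 17.0 and 63.6 in the DSS libraries, and all 4 lay above every control and below every AOM+DSS library. Of interferon-stimulated genes 2 of 18, of cytokines 4 of 35 and of myeloid markers 0 of 20 were called. Tnf stood at 413, 459, 411 and 496 in DSS, with a difference of 0.49 ± 0.23 from AOM+DSS (adjusted p 0.390), and Ifi44 at 599, 699, 759 and 467, with a difference of 0.33 ± 0.20 (adjusted p 0.513). Such a p does not show that the treatments act alike. Lgr5 was 3.31 ± 0.57 higher in AOM+DSS than in DSS (limma adjusted p 0.0210). Against control it was not called, and AOM+DSS library c lay below every control. This difference between the treatments does not by itself show a rise over untreated crypts.

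**Figure D5:**
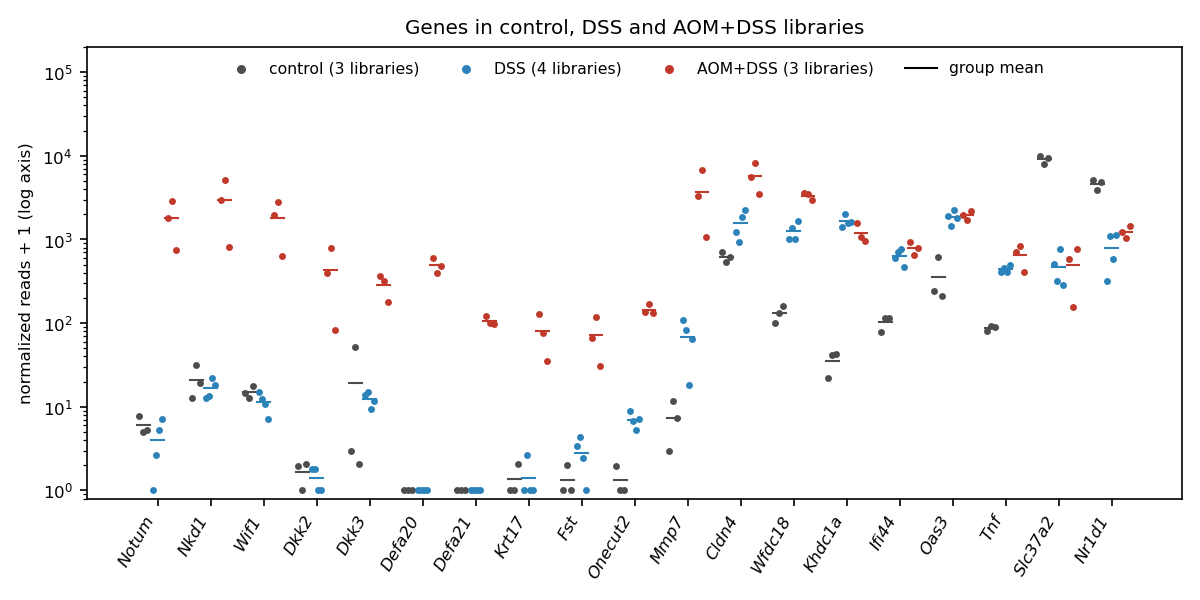
Normalised reads (log10 axis) of 19 genes in the control, DSS and AOM+DSS libraries, 1 point per library. Notum, Nkd1, Wif1, Dkk2 and the alpha-defensins are low or unread in both control and DSS and high in AOM+DSS. By contrast, Ifi44, Oas3 and Tnf are raised in DSS as well.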

How the data were processed

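RNA of distal colon crypts was measured by sequencing in 3 control, 3 AOM+DSS and 4 DSS samples, grouped by the treatment field and titles of the labels. The libraries came from poly(A)-selected RNA and a TruSeq v2 kit, which does not mark strand, per the labels' protocols. Reads were mapped to mm9 with TopHat2 2.0 and groups compared with DESeq, per the submitters' processing notes. Not given in the sources used here are the read counter, its annotation and the version of that test. Without strand, reads of overlapping antisense genes cannot be told apart. The signal columns are the authors' means of read counts after division by each library's size factor, per the file headers. The ratio (fold change), its log2 and the p-values, raw and adjusted, are the authors' own, per the file headers. One header speaks of 4 AOM+DSS replicates, whereas the labels list 3, and the recovered reads were solved with 3.

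Each library's whole reads were solved from the 15 printed digits of each group mean where exactly 1 combination of whole reads gave the mean within its rounding. It succeeded for 99.9% of genes in control and AOM+DSS (93.4% and 95.3% of the mean total) and for 86.6% in DSS (26.2%). Tested on simulated data (6000 genes a group), it solved 99.9% for control, 99.95% for AOM+DSS and 86.4% for DSS, and 0 were wrong. Pooled-read ratios of genes with 1 to 3 control reads carry 95% counting intervals, and folds against 0 control reads use a floor of 3 reads over the group.

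The authors' adjusted p below 0.05 decided the calls. Limma 3.58.1 (R 4.3.3, trend) on log2(normalised recovered reads + 1), with Benjamini-Hochberg adjustment over all genes, served as the check per library and as the test of AOM+DSS against DSS. Tested on simulated data for the comparison with control, it found 63% of genes changed 2-fold and 84% of those changed 4-fold. It called 7 unchanged genes, with 17944 genes tested in all, changed ones included. The simulated reads were drawn gene by gene, without shifts shared across a library, so these values do not cover libraries that stand apart. Alternatives were voom, a threshold of 0.01, a 2-fold limit, a pseudocount of 10, other scalings, each library left out and, chosen after seeing the data, a correction for GC content and length and the removal of both libraries that stood apart.

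The genes described and the 46 gene lists (922 of 925 entries found) were chosen with earlier results of these data known, so the lists are described by counts and medians only. Named genes were the 12 highest and 12 lowest ratios among called genes whose libraries do not overlap, with a mean of at least 50, both means above 0 and an established symbol; the 8 smallest adjusted p; up to 4 called members of each list, or the 2 with the highest mean where none was called; and Actb, Gapdh and Hprt. A few genes, some chosen by this rule, are not reported here. Besides those marked in the text as chosen after their values were seen, Axin2, Lgr5 and the genes under other observations fall outside this rule. Promoter windows came from RefSeq (GRCm38.p6), not from the mm9 build of the files.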

Additional observations from a re-analysis of the deposited data

Results flagged for a closer look

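Of the named genes called against control, 24 also differed between AOM+DSS and DSS when the treatments were tested directly with limma, all higher in AOM+DSS. Genes with many DSS reads were outside that test, so the shared direction is not a result about all named genes. The values are differences of mean log2(normalised reads + 1), for 3 against 4 libraries. Regulators of Wnt signalling were among them: Notum was 8.96 higher, Dkk2 7.80, Nkd1 7.15, Wif1 7.10 and Dkk3 4.48. The alpha-defensins Defa20, Defa21, Defa17 and Defa22 were 8.92, 6.73, 6.62 and 6.61 higher, with reads that may be split between near-identical copies. Epithelial surface and structural genes followed, with Krt17 at 5.79, Cldn4 at 1.87 and Muc1 at 1.27. The proteases Mmp7, Mmp12 and Mmp13 were 5.65, 4.998 and 4.29 higher. Matrix genes and the activin antagonist showed 4.07 for Fn1, 2.39 for Col4a2 and 4.68 for Fst. The remaining genes were Onecut2 at 4.38, Syt16 at 3.42, Cbx6 at 1.51, Wfdc18 at 1.43, Slc16a3 at 1.25 and Gbp3 at 1.04. Fibroblast marker sums, of which Fn1 is itself a large part, were given above. The part of fibroblasts in the values of Fn1 and Col4a2 was not tested.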

How the results depend on the processing

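No paired analysis was possible because nothing links the recovered libraries to the labels' replicate numbers. Against the authors' 1630 calls (1016 higher, 614 lower), limma made 3154 (1970 and 1184) and voom 3146 (1924 and 1222), while an adjusted p below 0.01 left 981 (625 and 356) and a 2-fold limit left 357 lower. The counts of limma stayed within 1.5 times of its own with a pseudocount of 10, scaling to the total or to the upper quartile, the limit of 50, or GC content and length corrected for. Library deviations from gene means went with transcript length (Spearman rho -0.23, 0.049 and -0.27 in control a, b and c, and 0.22, 0.25 and -0.065 in AOM+DSS). With GC content, rho was 0.22, 0.012 and 0.16 in control and -0.17, -0.14 and -0.087 in AOM+DSS. The part of this in single genes was not tested. The removal of 1 library, which leaves 2 samples in an arm, gave 532 to 4364 calls, 449 to 2740 higher and 83 to 1882 lower. The lowest counts came without control library a (532), control library c (711), AOM+DSS library a (721) and AOM+DSS library b (1434), the highest without AOM+DSS library c (4364) and control library b (4292). Without both control library b and AOM+DSS library c, 6661 genes were called, 3878 higher and 2783 lower. Called list members numbered 242 by the authors and 326 by limma. In limma they numbered 134 to 397 with 1 library left out and 499 without both libraries. Called named genes numbered 141 by the authors and 132 by limma, and 81 to 136 in limma with 1 library left out.

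Of 132 named genes that limma called, 78 stayed called with any 1 library left out, among them the 11 named here with the highest ratios. Calls of H2-Eb1, Cd74, Ncf4 and Gzma were lost in every such fit except that without control library b, and those of Rrm2, Krt7 and Ppara in every one except that without AOM+DSS library c. Ano1 lost its call without AOM+DSS library a or any control library. Gstm1, Sult1c2, Gstt1, Sult1a1, Hoxb13, Muc4, Bmp2, Acaa2, Herpud1, Arntl, Vim, Ccl8, Phlda1, Phlda3, Pmaip1, Slc30a10, Oaz3, Mptx2 and Wnt8b lost theirs without AOM+DSS library a, control library a or control library c. Dkk3, Hbegf, Tgfa, Mmp13, Hpgd, Icam1, H2-DMb1, H2-Ab1, Foxa2, Acads, Car9, Hdac10, Nfil3 and Clec7a lost theirs also without AOM+DSS library b. Fn1 lost its call without AOM+DSS library a or b or control library c. Car2 did so without AOM+DSS library a or b or control library a. Hoxd11 did so without AOM+DSS library b or control library a or c. Hoxd13, Foxp2, Rims4 and Areg lost theirs without control library a or c. Tgif1, Mrc1 and Krt13 did so without AOM+DSS library a or control library a. Hk2 and Scnn1g did so without AOM+DSS library a, and Psmb9 without control library a. Of 138 named genes called by the authors and fitted by limma, 7 were not called by it: Hpgds, Slc16a1, Creb3l1, Insl5, Rgs13, Gzmb and Pdgfrb. Signs turned only in uncalled genes: Msh6 to 0.016 without AOM+DSS library c and 0.082 without control library a (range -0.12 to 0.082 over the removals), Tagln to -0.65 (range to 1.81) and Uchl1 to -0.18 (range to 0.49) without AOM+DSS library c, Uchl1 to -0.28 without both libraries, and Gapdh to -0.058 without AOM+DSS library b (range to 0.15). The cause of these changes was not tested, beyond the smaller number of samples in each arm. Depth limits genes under a few reads per library and, in DSS, genes with high means, which were not resolved.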

Other observations

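Apart from the alpha-defensins, genes without a single control read reached high levels in AOM+DSS crypts. In all, 21 genes had no control read and an AOM+DSS mean of at least 50, and 16 of them were called in the authors' deposited table. Prss22, a serine protease, stood at 586, 1191 and 215 in the AOM+DSS libraries, at least 662-fold higher than control. Retnlg, a resistin-like protein of myeloid cells, stood at 312, 1521 and 141, with library b far above the others. Cyp21a1, the steroid 21-hydroxylase, was at 212, 245 and 48.6, Habp2, a plasma protease, at 173, 285 and 38.7, and Serpinb11, a serpin, at 84.0, 198 and 48.6. The T-box transcription factor T (brachyury) stood at 255, 217 and 23.2. In AOM+DSS library c each of these was lowest. Habp2 was also unread in all 4 DSS libraries, and T had 1 read there. The genes of this paragraph and the next were chosen after their values were seen.

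Some genes with many reads, where a change bears on the whole library, moved as well. Dmbt1, a secreted scavenger receptor, had a mean in the authors' deposited table that went from 53745 to 139975 (adjusted p 1.61e-05), with 105433 in DSS. The predicted gene AI747448 went from 447 to 35281, with 13295 in DSS, in the same table. On the lower side, the authors' means of the mucosal pentraxin Mptx1 were 43757 in control, 4676 in AOM+DSS and 15177 in DSS. Tgm3, a transglutaminase, had authors' means of 34968, 7058 and 11672, and Selenbp1, a selenium-binding enzyme of mature colonocytes, of 28531, 6721 and 12051. For these 3 the DSS mean lay between those of control and AOM+DSS. The comparisons of both treatments with control share the same 3 control libraries.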
